A study of Drosophila melanogaster with 3 samples.

Results

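The X chromosome of Drosophila melanogaster carried 1384 of the 6578 thresholded peaks of the zinc finger transcription factor Squeeze (sqz), 21.0% of all, and the other 5194 lay on the autosomes 2L, 2R, 3L, 3R and 4. Peaks were assigned by the chromosome in the deposited list, with no use of their strength. Chromatin immunoprecipitation and sequencing (ChIP-seq) recovers the DNA that a chosen protein sits on, and a peak is an interval in which that DNA piled up over a control, with the summit as its highest point. The material was whole embryos aged 0 to 16 h, males and females pooled, from a transgenic fly line in which sqz carries GFP at its C-terminus. The design holds 1 group of 3 biological replicates, numbered 1, 2 and 3, with no other genotype, age or treatment, so the comparison made here is between X and the autosomes within each library. A description field calls these libraries an input control, whereas the antibody and assay fields name a sqz ChIP, and the file headers name a separate control alignment shared by all. Nothing in the labels says that the native sqz gene was removed or which promoter drives the fusion, and whole embryos mix all cell types, so a peak cannot be placed in a tissue.

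Squeeze acts in the developing nerve cord, where it is known to help set the identity of Apterous neurons. The fly X differs from the autosomes in its regulation: males have a single X and raise its output through the MSL complex, which is guided by the roX RNAs and, at GA repeats, by the zinc finger protein CLAMP. The fly X is also known to be rich in short simple repeats. Pooled male and female embryos hold fewer copies of X than of each autosome, in the ChIP and in a matching control alike, and the part of copy number in the values below was not tested.

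Replicate 1 stood apart from the other libraries. Among the strongest 6578 peaks of each library, summits within 100 bp were found for 68.9% of the X peaks in replicate 1, 81.9% in replicate 2 and 81.4% in replicate 3, against 68.0%, 80.2% and 78.6% of the autosomal peaks. A summit in all 3 libraries was found for 710 X peaks (51.3%), against 47.8% of the autosomal peaks, and 28 X peaks (2.02%) had none, against 2.04% of the autosomal peaks. Over peaks met in both of 2 full lists, Spearman's rho of the signal was 0.55 between replicates 1 and 2, 0.57 between 1 and 3 and 0.73 between 2 and 3 on X (n = 1207, 1214 and 1263 peaks). The same rho was 0.59, 0.59 and 0.72 on the autosomes (n = 4443, 4424 and 4660 peaks). The files give no read counts, so the depth of each library is unknown.

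The sequences under some summits are shown as examples, and they do not stand for the X peaks at large. The letters below are the 151 bases centred on a summit, from the plus strand of dm6 (Release 6, RefSeq), for windows free of annotated exons. Capitals mark the simple repeats compared below, on either strand: the GA repeat GAGAGA, the dinucleotide repeat CACACA (CA repeat) and the homopolymer AAAAAAA (A run). The first 4 windows belong to the strongest X peaks that meet this condition, and they are nearly bare of capitals: only the Tlk window holds a marked word.

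ph-p, chrX:2137220-2137370: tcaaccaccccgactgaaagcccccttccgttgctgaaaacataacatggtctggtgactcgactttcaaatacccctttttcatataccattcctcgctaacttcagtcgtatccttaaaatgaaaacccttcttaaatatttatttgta
CG32772, chrX:4910328-4910478: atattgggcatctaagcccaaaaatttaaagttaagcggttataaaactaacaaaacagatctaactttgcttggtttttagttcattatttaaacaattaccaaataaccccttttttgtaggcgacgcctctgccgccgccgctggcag
Tlk, chrX:3742480-3742630: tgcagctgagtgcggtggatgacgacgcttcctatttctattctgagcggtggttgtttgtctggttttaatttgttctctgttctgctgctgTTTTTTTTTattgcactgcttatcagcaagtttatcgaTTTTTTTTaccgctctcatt
Raf, chrX:2304058-2304208: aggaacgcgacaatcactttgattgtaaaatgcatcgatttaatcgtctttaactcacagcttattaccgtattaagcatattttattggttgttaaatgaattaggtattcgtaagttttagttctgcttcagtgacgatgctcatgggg

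These 4 summits stood at rank 2, 3, 6 and 7 among the X peaks. With 100 bp on each side of the summit, all 3 words were in 4.26% of X windows and none of them in 22.5%. Windows with all 3 words are thus few, and the 4 strongest such windows follow, again with exon-free sequence only. They lie near Cph (Chronophage, a zinc finger factor of the nervous system), mnb (minibrain, a protein kinase of neural growth), Sxl (Sex-lethal, the master switch of female development and of X dosage in the fly) and rg (rugose, a kinase anchor protein), at rank 19, 38, 86 and 100 on X.

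Cph, chrX:7226156-7226306: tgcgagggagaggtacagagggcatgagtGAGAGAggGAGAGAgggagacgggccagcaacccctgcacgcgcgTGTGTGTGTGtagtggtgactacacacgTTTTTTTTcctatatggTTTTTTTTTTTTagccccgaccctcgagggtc
mnb, chrX:17878772-17878922: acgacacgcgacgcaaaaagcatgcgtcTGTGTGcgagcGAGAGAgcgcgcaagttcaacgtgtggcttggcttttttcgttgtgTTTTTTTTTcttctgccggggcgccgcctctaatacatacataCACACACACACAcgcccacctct
Sxl, chrX:7097168-7097318: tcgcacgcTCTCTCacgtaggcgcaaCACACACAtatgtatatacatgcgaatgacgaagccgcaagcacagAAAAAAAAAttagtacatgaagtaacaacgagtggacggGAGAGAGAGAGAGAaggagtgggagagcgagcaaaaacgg
rg, chrX:5086397-5086547: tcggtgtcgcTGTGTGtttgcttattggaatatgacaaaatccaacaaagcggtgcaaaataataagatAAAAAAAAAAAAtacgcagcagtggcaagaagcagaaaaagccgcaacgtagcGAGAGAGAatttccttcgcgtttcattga

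The Cph summit lay 224 bp upstream of the nearest transcription start site (TSS) and the Sxl summit 177 bp upstream, whereas the mnb and rg summits lay in introns, 3807 bp upstream and 713 bp downstream of the nearest TSS. The Sxl window carries a GA repeat of 14 bases beside an A run, the mnb window a CA repeat of 12 bases.

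Peaks were denser on X than on the autosomes in each library. With the strongest 6578 peaks of each library, X held 55.8, 58.7 and 59.8 peaks per Mb in replicates 1, 2 and 3, against 47.7, 47.1 and 46.8 peaks per Mb on the autosomes. The groups of values did not overlap. The means were 58.1 ± 2.11 on X and 47.2 ± 0.450 on the autosomes (SD, n = 3 libraries), a difference of 10.9 ± 2.56 peaks per Mb. The two-sided exact sign-flip permutation test over the 3 libraries gave p = 0.25, the smallest that 3 libraries allow, and an adjusted p of 0.271 over 13 measures, so the test cannot pass 0.05 here whatever the size. In the thresholded list the densities were 58.8 on X and 47.1 on the autosomes, a ratio of 1.25. By arm, X stood above 3L (51.7), 2L (50.4), 2R (45.2), 3R (43.2) and 4 (20.03), although X has fewer protein-coding genes per Mb than the autosomes (93.3 against 106). Leaving out the gene-poor ends next to the centromeres and chromosome 4 brought the difference down to 5.59 peaks per Mb (61.9 on X and 56.3 on the autosomes).

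The excess of X peaks sat in and near genes. Start sites and introns together held most X summits: 552 (39.9%, 95% Wilson interval 37.3 to 42.5%) lay within 500 bp of a TSS and 633 (45.7%, 43.1 to 48.4%) in introns, against 37.3% and 40.9% of the autosomal summits. Intergenic sequence held 160 X summits (11.6%, 9.98 to 13.4%), against 20.02% (19.0 to 21.1%) of the autosomal ones. Coding exons held 3 X summits, 5′ UTRs 17 and 3′ UTRs 19. The intervals cover counting error only, and neighbouring peaks are not independent.

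In the libraries the intergenic share was 11.3%, 11.4% and 12.1% on X, against 18.4%, 20.2% and 20.5% on the autosomes. Every X value lay below every autosomal value, and the difference was -8.08 ± 0.913 percentage points (SD, n = 3; exact sign-flip permutation p = 0.25, adjusted 0.271). The intron share was 42.7%, 46.5% and 46.2% on X, against 35.8%, 41.5% and 40.6% on the autosomes, a difference of 5.82 ± 0.995 points with the same exact p. The share at start sites did not separate the chromosomes: it was 43.1%, 38.8% and 38.9% on X, against 44.1%, 36.4% and 37.0% on the autosomes, lower on X in replicate 1 and higher in the others (difference 1.07 ± 1.82 points, exact permutation p = 0.5). Without replicate 1 that difference was 2.11 points.

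Shares depend on how much of each class a chromosome has, and intergenic bases made up 26.8% of X and 30.7% of the autosomes. Set against the bases of each class, X held 213 summits per Mb of sequence within 500 bp of a TSS, against 152 on the autosomes, a ratio of 1.40. In introns the densities were 65.3 and 49.4 per Mb (ratio 1.32). In intergenic sequence X held fewer, 25.4 against 30.7 per Mb (ratio 0.826). Each library had the same order: near start sites 218, 207 and 211 per Mb on X against 182, 148 and 150 on the autosomes, and in intergenic sequence 23.6, 25.1 and 27.0 on X against 28.6, 30.9 and 31.4 on the autosomes. These class densities and ratios cover whole chromosomes. They were not recomputed without the gene-poor ends next to the centromeres, which brought down the difference in density over all classes.

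**Figure D1:**
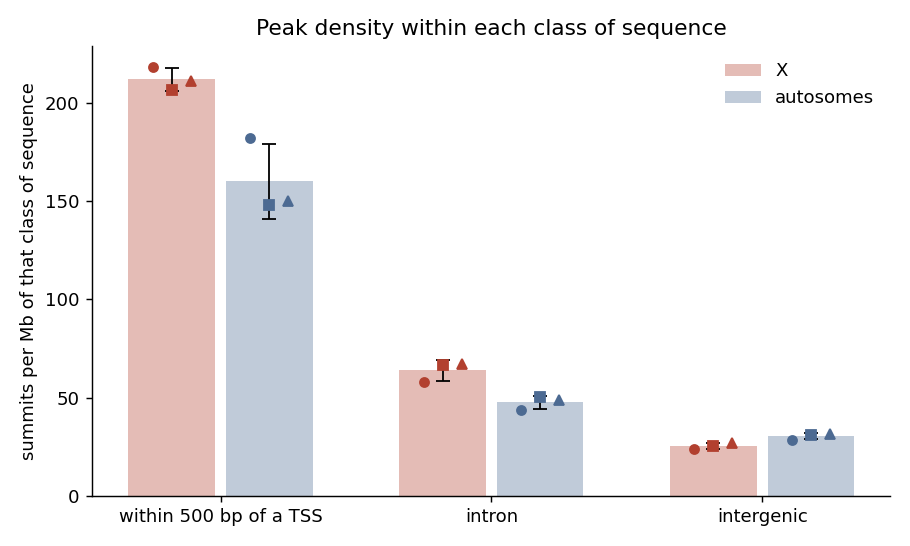
Summits per Mb of each class of sequence, on X (red, left) and on the autosomes (blue, right). Bars are means and whiskers SD over 3 libraries, and circles, squares and triangles are replicates 1, 2 and 3. X stands above the autosomes near start sites and in introns and below them in intergenic sequence, in every library.

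Around start sites, X summits lay past the TSS more often than autosomal summits did, at a like distance from it (median 135 bp on X and 131 bp on the autosomes). Of the 552 X summits within 500 bp of a TSS, 52.9% lay upstream, with a median position of -17 bp, against 63.2% and -59 bp on the autosomes. The upstream share was 61.3%, 53.0% and 53.6% on X in replicates 1, 2 and 3, against 65.4%, 63.4% and 62.0% on the autosomes, so X was lower within each library but replicate 1 was near the autosomal values. Start sites of opposite direction that share a promoter region lay at 15.8% of these X summits, against 20.9% of the autosomal ones. With such summits left out, the upstream share was 52.9% on X and 61.1% on the autosomes. This feature was chosen after its values were seen and was not tested.

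**Figure D2:**
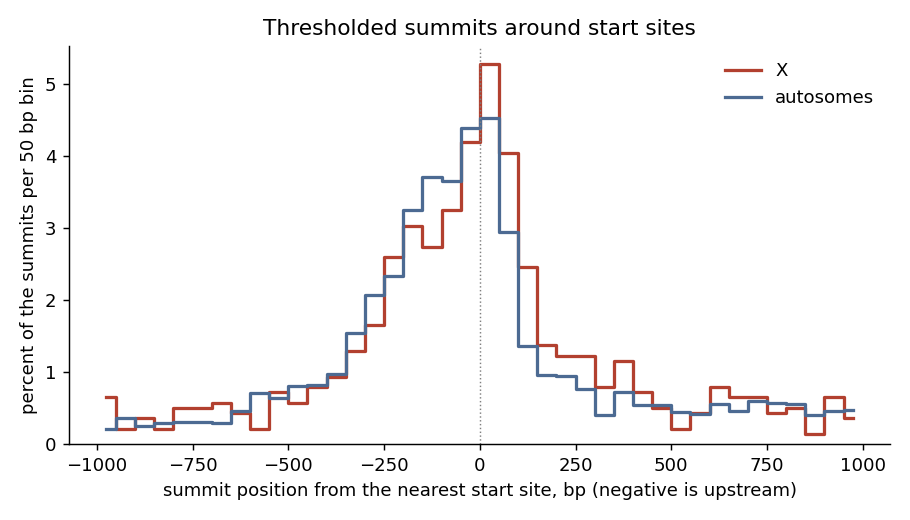
Percent of all thresholded summits of X (red) and of the autosomes (blue) in 50 bp bins of distance from the nearest TSS, with negative values upstream. The X curve is lower just upstream of the TSS and higher just downstream of it, with medians of -17 bp on X and -59 bp on the autosomes among summits within 500 bp.

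X genes were marked more often than autosomal genes. A gene is called marked here when a thresholded summit lies within 1 kb of one of its start sites. By this rule 587 of 2196 protein-coding X genes (26.7%) were marked, against 2273 of 11749 autosomal genes (19.3%) and 20.5% of all genes. In the libraries the share was 28.3%, 26.6% and 26.8% on X, against 25.1%, 18.8% and 19.2% on the autosomes and 25.6%, 20.1% and 20.4% of all genes. The values did not overlap, and replicate 1 had the smallest gap. The difference was 6.16 ± 2.57 points (SD, n = 3; exact sign-flip permutation p = 0.25, adjusted 0.271). Counting summits anywhere in the gene or within 1 kb of it, 32.2% of X genes held at least 1, against 24.7% of autosomal genes and 25.9% of all genes, and 78 X genes (3.55%) held 5 or more, against 1.92% of the autosomal genes. Genes with more start sites or a longer body have more room for a summit. These genes had 3275 distinct start sites on X and 15977 on the autosomes. Their median length was 2521 bp on X and 2102 bp on the autosomes. The part of start site number and gene length in these shares was not tested.

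Along X, peaks thinned toward the centromere and were also few at the distal tip. The first 1 Mb window held 24 summits, with 25, 30 and 27 in replicates 1, 2 and 3. A further dip lay at chrX:14000001-15000000, with 32 summits. The first 5 Mb held 63.0 peaks per Mb, the next 5 Mb 86.6, the stretch from 10 to 15 Mb 66.2 and that from 15 to 20 Mb 53.2. From 20 Mb to the end of the assembled chromosome at 23.5 Mb, the density was 11.01 per Mb, with 13.8, 11.6 and 11.9 per Mb in replicates 1, 2 and 3. The densest 1 Mb window, chrX:7000001-8000000, held 104 summits, with 97, 105 and 109 in the libraries. The next were chrX:8000001-9000000 with 102 and chrX:3000001-4000000 with 97. The order did not follow gene number: the window with 97 summits had 55 protein-coding genes and chrX:15000001-16000000, with 140 genes, had 54 summits.

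**Figure D3:**
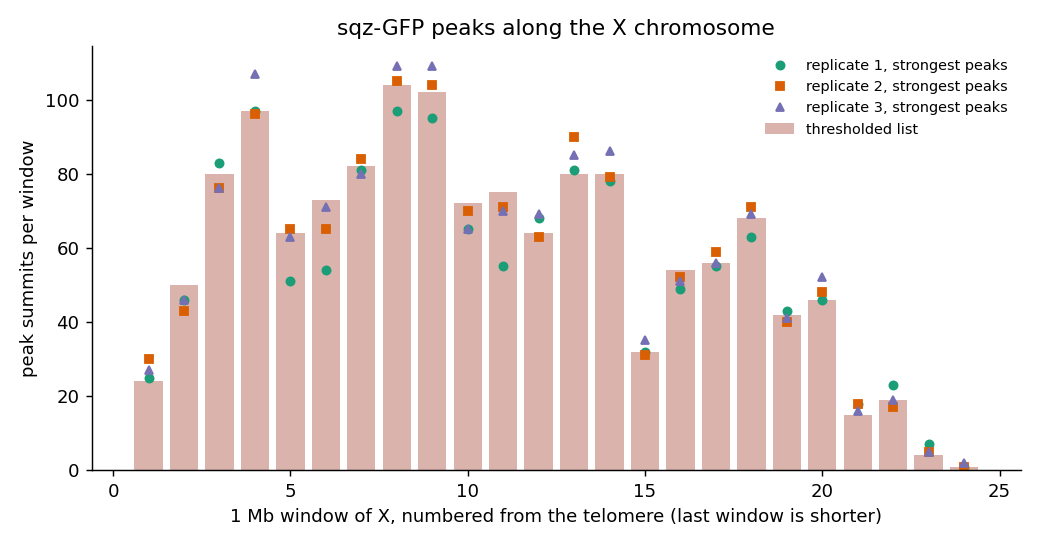
Summits per 1 Mb window along X, from the telomere on the left to the centromere on the right. Bars are the thresholded list, and circles, squares and triangles are the strongest 6578 peaks of replicates 1, 2 and 3. The windows with 104 and 102 summits stand side by side, and the last 4 windows hold 15, 19, 4 and 1.

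In windows of 100 kb, X had a median of 4.5 summits, against 3 on the autosomes. Of the 236 X windows, 38 (16.1%) were empty, against 26.7% of the autosomal windows, and 55 (23.3%) held 10 or more, against 15.2%. The fullest window on X held 22 summits, while the fullest autosomal window held 33. X thus had a smaller share of bare windows. The maxima are not alike, since the autosomal one was taken over 1106 windows. These windows include the gene-poor ends next to the centromeres, whose part in the share of bare windows was not tested. The variance over the mean of these counts was 4.64 on X and 5.57 on the autosomes.

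The 5 densest windows of 100 kb were built around large genes. The window chrX:10700001-10800000 held 22 summits, with 16, 19 and 20 in replicates 1, 2 and 3. There stx (stuxnet, a regulator of Polycomb protein stability) had 14 summits, while Ant2 and sesB, overlapping genes for mitochondrial ADP/ATP carriers, shared 4. The TSS nearest to 13 of the 14 stx summits was that of ras (raspberry, an enzyme of guanine nucleotide synthesis). The windows chrX:7200001-7300000 and chrX:7300001-7400000 held 21 and 20 summits, in Cph (9 in the window) and in CG1677 (8 and 20), with unc-119, Atg5 and CBP inside CG1677. The window chrX:13200001-13300000 held 21, with 12 in mew, an integrin alpha subunit, 4 in HDAC4, a histone deacetylase, and 3 in sno (strawberry notch, a Notch pathway factor). The window chrX:12700001-12800000 held 19, of which 11 were in Smr, a corepressor that acts with the ecdysone receptor, 2 by CG4004 and 2 by Paics, a purine synthesis enzyme.

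Long genes carried the most summits. The 10 X genes with most summits in the gene or within 1 kb held 169 of the X summits, 12.2%. CG1677, which spans 125 kb, had 28, with 24, 28 and 24 in the libraries. Of these 28, 23 were intronic, and the gene holds 13 other genes inside its limits, so a summit there need not belong to CG1677. The nearest TSS was that of brk for 7 of the 28, of unc-119 for 7 and of CBP for 6. The gene brk encodes Brinker, the repressor of targets of the BMP ligand Dpp. Its 7 nearest summits, picked out after their values were seen, were led by those 2859 and 1821 bp upstream of the TSS, with signals of 1181 and 1057, and 6, 7 and 6 summits were nearest to brk in the libraries. Next came kirre, an immunoglobulin adhesion protein of myoblast fusion, with 25 summits over 394 kb, 5 of them nearest to rst, its paralogue.

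Per length, the order was another. CG14434 had 12 summits at 6.94 per 10 kb, Tis11, a regulator of mRNA decay, 13 at 5.17 per 10 kb, and stx 14 at 3.91. Raf, the kinase that carries Ras signals to MAP kinase, had 14 at 2.78 per 10 kb, Hr4, a nuclear receptor of the ecdysone cascade, 17 at 2.499, and Tlk, a kinase of chromatin assembly, 17 at 2.37. The very long genes were sparser: dnc, the cAMP phosphodiesterase dunce, had 12 at 0.709 per 10 kb, kirre 25 at 0.631 and the teneurin Ten-a 17 at 0.579. Among these 10 genes, summits of Ten-a were the least shared, with 4 of 17 met in all 3 libraries, compared with 9 of 12 for dnc and 9 of 13 for Tis11.

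**Figure D4:**
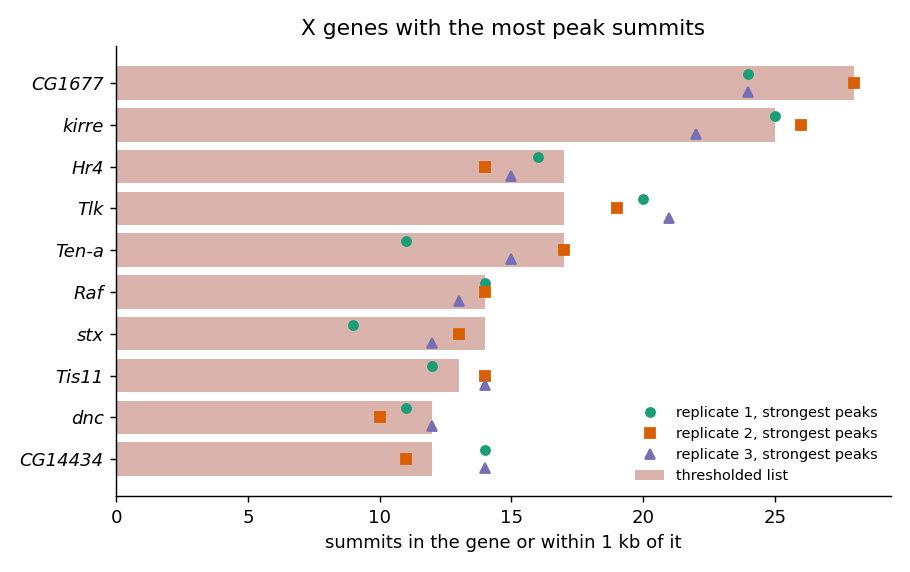
Number of summits in each of the 10 X genes with most summits, counted in the gene and within 1 kb. Bars are the thresholded list and symbols the strongest 6578 peaks of each replicate. CG1677 leads with 28 thresholded summits and 24, 28 and 24 in replicates 1, 2 and 3, and Tlk has more in each library (20, 19 and 21) than in the thresholded list (17).

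Clusters of close summits were common on X. In the libraries, 34.7%, 34.2% and 35.8% of X summits had another within 1 kb, against 30.2%, 32.4% and 31.9% of the autosomal summits (difference 3.39 ± 1.37 points, exact permutation p = 0.25, adjusted 0.271). The median spacing was 5504 bp, 4468 bp and 4254 bp on X, against 5804 bp, 4786 bp and 4932 bp on the autosomes, with the same exact p and shorter on X within every library. Among thresholded summits the neighbour share was 33.7% on X and 31.4% on the autosomes. For those met in all 3 libraries it was 15.2% on X and 14.6% on the autosomes. Neighbour share and spacing both depend on peak density, which was higher on X, and its part in them was not tested. Chaining thresholded summits within 1 kb gave 211 clusters on X, of which 175 were pairs and 36 held 3 or more. The largest, with 5 summits over 2774 bp, lay at east, and 4 of its summits were at start sites, with 4, 3 and 4 summits there in the libraries. Clusters of 4 lay at Act5C, a cytoplasmic actin, at CG14434, at Pdcd4, a translation inhibitor, at sdk, a cell adhesion protein of cell corners, at NFAT, a transcription factor, and at ec (echinus, a ubiquitin protease family member). Chaining within 5 kb gave 304 clusters holding 73.9% of X summits, against 72.9% of the autosomal summits. A wider chain thus showed little difference, and a close pair cannot be told apart from a single broad region that the authors' caller split.

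Gaps were the counterpart of these clusters. On X, 42 spacings exceeded 100 kb, and they covered 31.0% of the chromosome, against 29.7% of the autosomes. The 5 longest X gaps all began at or past position 19889584 of X, in the part nearest the centromere. The longest, chrX:21631683-22455810, ran 824 kb from a summit near DIP1 to the start of Usp2, with 25 protein-coding genes inside, wap (wings apart) among the longest. It includes 64320 unsequenced bases (N) in the assembly, a small part of its length. The full pooled list of 30000 peaks had 4 summits inside it, 0.0485 per 10 kb, compared with 2.88 per 10 kb over X. The second, chrX:22487110-22855159, ran 368 kb to the start of fog (folded gastrulation, a secreted signal of gastrulation) and held Cda4, a chitin deacetylase. The third, chrX:20757051-21042827, ran 286 kb and held shakB, a gap junction protein of the nervous system, which alone spans 166 kb. The other gaps, of 276 and 251 kb, held Dop2R, a dopamine receptor, with amn (amnesiac, a neuropeptide) at its edge, and stnB, a synaptic vesicle protein.

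X peaks were of ordinary strength. The signal is the strength the authors' caller gave, used only to rank peaks within a list. The thresholded X signals ran from 165 to 2620 with a median of 266, and the autosomal median was 261. In rank percentile, where a lower value means a stronger peak, the median was 49.7, 49.4 and 49.9 on X in the libraries, against 50.09, 50.15 and 50.02 on the autosomes, and this small difference changed its sign under other peak sets. X gave 14 of the strongest 100 peaks and 2 of the strongest 15, below its 21.0% of the list. Among X peaks, median signal was 291 near start sites, 258 in introns and 255 in intergenic sequence, against 290, 247 and 249 on the autosomes.

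The strongest X peak lay 43 bp upstream of Ugalt, a UDP-galactose transporter of the Golgi. Its signal was 2620, and it ranked 1, 9 and 5 among all peaks of replicates 1, 2 and 3 and first on X in each. The second lay 440 bp upstream of a TSS of ph-p, a Polycomb group protein of the PRC1 complex, with signal 2025 and ranks of 7, 30 and 13. The polyhomeotic locus is a tandem repeat of ph-p and ph-d, near-identical in parts, so reads could have been split between the copies. CG32772 followed with an intronic summit of signal 1809 (ranks 13, 33 and 39), then CG5004 with 1709 and the intergenic summit 5039 bp downstream of the TSS of CG4004 with 1674. Tlk and Raf came next with intronic summits of signal 1652 and 1651. The Tlk summit ranked 681 in replicate 1, 24 in replicate 2 and 10 in replicate 3, a library difference that the Raf summit did not have (ranks 59, 36 and 29).

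The other peaks among the strongest 15 were at Gapdh2, a glycolytic enzyme (1545), Rnp4F, an RNA binding protein of splicing (1490), Zdhhc8, a palmitoyltransferase (1293), Gbeta13F, a G protein beta subunit (1282), CG3009 (1238), mnb (1224), Tis11 (1219) and CG3726 (1187). Ranks in replicates 1, 2 and 3 also differed for mnb (623, 78 and 100), CG5004 (175, 10 and 31), Zdhhc8 (200, 81 and 56) and Tis11 (164, 310 and 78). They were 52, 54 and 41 for Gapdh2, 81, 35 and 68 for Rnp4F and 109, 69 and 128 for Gbeta13F. For CG3009 they were 70, 134 and 105, and for CG3726 93, 176 and 91. Among all 15, 9 lay within 500 bp of a TSS, 5 in introns and 1 in intergenic sequence.

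Gene lists show which kinds of X genes were marked. The background is the 26.7% of X genes that were marked, and counts are given beside it with no test. All 14 cytosolic ribosomal protein genes on X were marked, against 46 of 78 on the autosomes (59.0%). The X members had signals of 225 to 720 with a median of 405, and their summits lay 0 to 103 bp from a TSS, with a median of 16.5 bp. All 14 were marked in replicates 1 and 2 and 13 in replicate 3. RpS10b (720), RpL22 (676), RpS28b (576) and RpS19a (529) were the strongest. RpS14a and RpS14b are adjacent near-identical copies whose reads may be split, and RpL7A shares its summit with dx.

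Marked X genes included developmental regulators. Of 23 patterning and cell fate transcription factors, 12 were marked (52.2%, 33.0 to 70.8%), led by peb (hindsight, a zinc finger factor of retraction of the germ band; 796), Bx (a LIM-only protein; 744, a summit that lies as near to a TSS of HisRS, a tRNA synthetase gene), oc (orthodenticle, a head patterning factor; 628) and ct (cut; 527). The gap gene gt was not marked, and no library's full list had a summit within 1 kb of its TSS. Of 19 signalling genes, 9 were marked (47.4%, 27.3 to 68.3%), with csw, a phosphatase of receptor tyrosine kinase signalling, at 905, Raf at 720, sgg, the fly GSK3, at 630 and dsh (dishevelled) at 446. N itself, the Notch receptor, was marked through a summit of signal 249, 88 bp from a TSS, near the X median. Of the 9 summits in or near N, the strongest, at position 3162049 with signal 993, was intronic, and the TSS nearest to it was that of CG18508. All 3 matched ecdysone genes were marked: br (Broad; 460), Hr4 (357) and usp (Ultraspiracle; 259).

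Neuronal genes included members at both extremes. Of 22, 9 were marked (40.9%, 23.3 to 61.3%), with elav, the RNA binding protein used as a marker of neurons, at 1117, dnc at 605, fne at 478 and Nrg (Neuroglian) at 392. The ion channel genes para, Sh, cac and eag were not marked, whereas Hk, in the same list, was marked (358). The unmarked genes named here are a selection and do not stand for ion channel genes as a class. Among the strongest peaks, para had a summit near a TSS in replicate 1 and Sh in replicate 3. The full lists of replicates 1, 2 and 3 had 2, 2 and 1 such summits for para and 4, 2 and 5 for Sh. They had 3, 2 and 2 for cac and 1, 2 and 1 for eag. Chromatin genes were near the background, with 6 of 18 marked (33.3%, 16.3 to 56.3%): ph-p (2025), Top1 (topoisomerase; 1104), fs(1)h (a BET family bromodomain protein; 997) and ph-d (917) led, and mof, the MSL complex acetyltransferase, was not marked and had no summit near its TSS in any library's full list. Of 6 proteasome genes, 1 was marked, Prosalpha4 with 192, by a summit nearer to the TSS of kat80, against 2 of 42 on the autosomes.

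Sxl and run were the marked genes among those that count the X chromosomes or serve dosage compensation. Of 5 genes of the X counting system (the X signal elements and Sxl), 2 were marked (40%, 11.8 to 76.9%), Sxl at 718 and run (runt) at 428, in each library, while sisA, sc and upd1 were not. No thresholded summit lay in or within 1 kb of roX1 or roX2, and the nearest lay 5950 bp and 8815 bp away. The full library lists did hold summits there, with best ranks of 7823, 15847 and 13861 for roX1 and 6548, 8793 and 12007 for roX2, so in replicate 1 the roX2 summit falls within the strongest 6578 peaks. With 2 genes, a count of 0 sets no useful limit on the share.

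No gene of 3 further lists was marked. None of the 4 achaete-scute genes (ac, sc, l(1)sc and ase), which set neural fate, was marked, which allows a share of up to 75%. None of 9 yolk protein and chorion genes was marked (up to 33.3%), though 1 thresholded summit lay within 1 kb of the body of Yp3, nearest to the TSS of rdgB, and none of 25 chemoreceptor genes (up to 12%), against 2 of 154 chemoreceptor genes on the autosomes. These limits cover counting error only. Yolk, chorion and chemoreceptor genes are known mainly from later stages of life.

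Simple repeats were more common at X summits. The shares are for windows of 100 bp on each side of the summit, both strands searched. An A run (AAAAAAA) stood in 51.8%, 65.6% and 62.3% of X windows in replicates 1, 2 and 3, against 43.2%, 56.6% and 53.6% of the autosomal windows. The libraries differed more than the chromosomes did, so the values overlapped, but within each library X was higher by nearly the same amount, 8.78 ± 0.208 points (SD, n = 3; exact sign-flip permutation p = 0.25, adjusted 0.271). A CA repeat (CACACA) stood in 28.0%, 30.7% and 30.8% of X windows, against 22.7%, 24.4% and 25.4%, a difference of 5.67 ± 0.587 points. A GA repeat (GAGAGA) stood in 17.4%, 18.2% and 19.1% of X windows, against 13.9%, 15.2% and 16.4%, a difference of 3.03 ± 0.370 points. The thresholded list gave a smaller GA difference of 1.64 points, with 16.98% on X (15.1 to 19.0%) and 15.3% on the autosomes (14.4 to 16.4%), whose intervals overlap, and 3.73 points for its peaks met in replicates 1 and 2. For the A run its shares were 63.4% on X and 53.5% on the autosomes, and for the CA repeat 30.6% on X and 24.5% on the autosomes. In the libraries, for CA and GA, the X values lay wholly above the autosomal values, with the same exact p.

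X sequence at large is richer in these words, and the share at summits has to be read against it. Over all tiles of the same length, the A run was in 21.3% on X and 15.3% on the autosomes, the CA repeat in 17.1% on X and 14.9% on the autosomes, and the GA repeat in 7.43% on X and 6.88% on the autosomes. Thresholded X summits exceeded X tiles by 2.97 times for the A run, 1.78 times for the CA repeat and 2.28 times for the GA repeat. For autosomal summits against autosomal tiles these ratios were 3.50, 1.65 and 2.23, ratios that a higher share in tiles limits. The longer repeat GAGAGAGA, which contains the shorter one, was in 94 X windows (6.79%, 5.58 to 8.24%), against 4.51% of the autosomal windows, and in 1.54% of X tiles, against 1.04% of the autosomal tiles. All 3 tested words were in 59 X windows (4.26%), against 2.25% of the autosomal windows, and none of them in 312 (22.5%), against 29.8%.

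**Figure D5:**
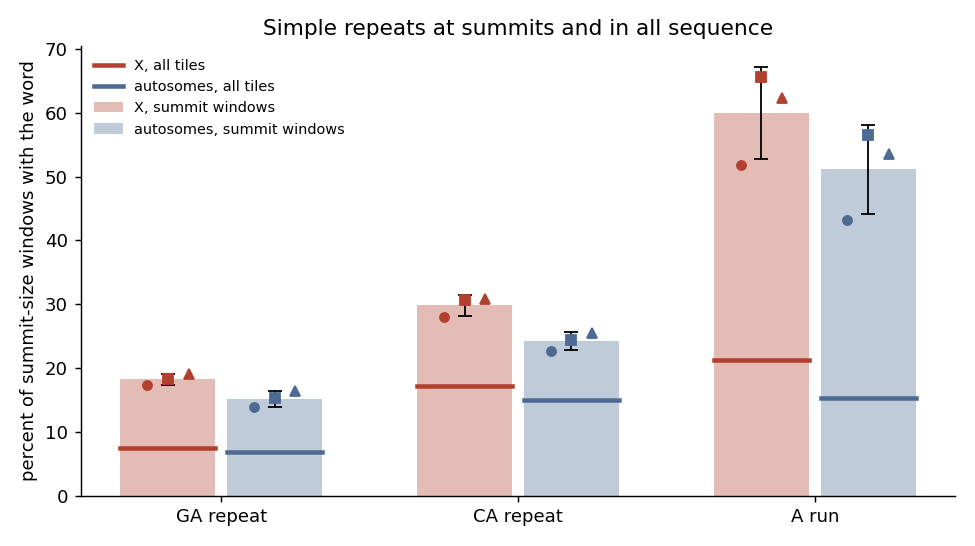
Percent of summit windows with a GA repeat, a CA repeat or an A run, on X (red, left) and on the autosomes (blue, right). Bars are means and whiskers SD over 3 libraries, symbols are replicates 1, 2 and 3, and thick lines are all tiles of the same length. X is above the autosomes for each word both at summits and in tiles.

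Position mattered for the A run. On X it started 16.4 times per kb within 50 bp of the summit, 7.23 times between 100 and 200 bp and 5.23 times between 400 and 500 bp, against 10.96, 4.43 and 2.52 on the autosomes. CACACA was flatter than the A run, on X and on the autosomes. It had 3.75 starts per kb within 50 bp and 3.11 between 400 and 500 bp on X, against 2.39 and 2.02 on the autosomes. GAGAGA had 1.95 and 1.08 on X, against 1.28 and 0.866. Unlike the A run, neither repeat was most frequent next to the summit. On X, GAGAGA had 2.32 starts per kb between 100 and 200 bp and CACACA 4.14 between 200 and 300 bp. On the autosomes, GAGAGA had 1.73 between 50 and 100 bp and CACACA 2.72 between 100 and 200 bp. A long run gives several starts, so these counts weigh long repeats more.

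GA and CA repeats were more frequent at strong peaks than at weak ones, on X and on the autosomes. GAGAGA was in 21.97% of the strongest 25% of thresholded X windows, against 13.01% of the weakest 25%, whereas the autosomal shares were 15.4% and 14.0%. In the libraries the same shares were 18.6%, 21.7% and 24.7% of the strongest 25% on X, against 16.8%, 16.5% and 18.2% of the weakest. On the autosomes they were 15.3%, 16.5% and 18.1% of the strongest 25% and 12.2%, 14.3% and 16.3% of the weakest, so both chromosome sets showed the order in each library and no difference between them was tested. CACACA was in 34.7% of the strongest 25% of thresholded X windows and 26.9% of the weakest, against 25.2% and 23.3% on the autosomes. In replicates 1, 2 and 3 its X shares were 27.4%, 33.0% and 37.5% of the strongest and 26.5%, 29.3% and 29.5% of the weakest. On the autosomes its shares were 21.8%, 27.0% and 27.1% of the strongest and 20.3%, 21.3% and 25.5% of the weakest. Among the strongest 15 X peaks, 6 held none of the 3 words.

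Other words differed less, in points, between X and the autosomes than the GA, CA and A words did. TATCGATA, which contains CGATA and is the DRE core of many housekeeping promoters, was in 29 X windows (2.10%), against 1.87% of the autosomal windows and 0.706% of X tiles. Near start sites it was in 4.35% of X summit windows, against 9.44% of all windows of this length at X start sites. On the autosomes these shares were 4.70% and 5.83%. The summit windows were centred up to 500 bp from the TSS, so these shares do not compare like windows. GGTCACAC was in 1.45% of X windows, against 2.10%, CAGGTA, the core of the Zelda motif, in 3.68%, against 4.25%, CAGCTG, an E box, in 8.96%, against 8.97%, and CGATA in 22.98%, against 22.87%. For GGTCACAC the intervals overlapped (0.937 to 2.22% on X, 1.74 to 2.53% on the autosomes). Summits exceeded tiles for this word by 2.98 times on X and 5.02 times on the autosomes. GC content of the windows was 39.7%, 39.7% and 40.02% on X, against 39.1%, 39.2% and 39.7% on the autosomes (difference 0.466 ± 0.183 points, exact permutation p = 0.25), while tiles had 42.5% on X and 42.1% on the autosomes.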

How the data were processed

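ChIP-seq peak lists of 3 libraries, all of 1 group, were analysed. Each library and the pool of all 3 has a list of 30000 peaks on dm6, made by the authors against 1 shared control alignment, per the file headers, which also derive the thresholded list with the irreproducible discovery rate (IDR), a measure of how alike replicates rank. The sources used here name no aligner, no peak caller and no IDR cutoff. Peaks were ranked by the deposited signal value, whose scale is not stated. The -log10 q value, as deposited, stood at its ceiling for 62.8% of X peaks and was not used. Fragments were sonicated to 200 to 800 bp, per the labels. The files give no read depth, so precision rests on the number of peaks counted, and 3 replicates may share technical spread.

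Summit positions (from 1) were set against Ensembl release 115 genes (BDGP 6.54; 13945 protein-coding genes, 19252 distinct TSSs) and the Release 6 sequence. Each summit took the first class of TSS-proximal (500 bp), UTR, coding exon, intron and intergenic. Per library, 13 measures were taken on the strongest 6578 peaks of X and autosomes, and differences were tested by a two-sided exact sign-flip permutation test with Benjamini-Hochberg adjustment; the thresholded list is described with 95% Wilson intervals, and 0 counts with a limit of 3 counts. Words were sought within 100 bp on each side. Alternatives covered peak sets, left-out replicates, chromosome 4, merged summits, pericentromeric ends and windows. The functions were tested on simulated data. Python 3.11.15, numpy 2.4.6, pandas 2.3.3, scipy 1.17.1 and matplotlib 3.10.9 were used.

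Named genes are those nearest the 15 strongest X peaks, in the 5 densest windows of 100 kb, among the 10 with most summits, at the 5 longest gaps, in the largest clusters, and the 4 strongest marked members of each list. Genes named beyond this rule were chosen after their values were seen. The members and lists were chosen with earlier results of these data known. Of the 4 ecdysone symbols, phm was not matched, and unmatched symbols of other lists were left out.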

Additional observations from a re-analysis of the deposited data

How the results depend on the processing

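Of 124 alternatives to the 13 differences between X and autosomes in the libraries, 119 kept their direction. The 5 that turned round came from other peak sets: with all 30000 peaks of each library, GC content differed by -0.00378 points, the share with a neighbour within 1 kb by -0.123 points, the share within 500 bp of a TSS by -0.0693 points and the median rank percentile by 1.65, and with the strongest peaks numbering 50% of the thresholded list the rank percentile differed by 0.568. In the thresholded list, of 60 alternatives 20 moved by less than the SD between libraries, 34 moved by more with their direction kept and 6 turned round; median spacing reached -1980 bp for peaks met in all 3 libraries, against -426 bp. There, X minus autosomes in rank percentile was 1.52 in the stronger part of the list, 3.24 for peaks met in all 3 libraries and 1.69 to 2.73 for peaks met in the replicates left after leaving out each in turn, and the neighbour share was -0.131 points without replicate 3, 3.92 without replicate 1 and 4.69 in the stronger part of the list. The causes were not tested. Intergenic, intron, gene, GA, CA and A-run differences kept their direction under every alternative run, the intergenic one between -8.79 and -7.42 points. Without replicate 1, the library that stood apart, density differed by 12.3 peaks per Mb and the share of marked genes by 7.65 points. The density difference ran from 5.59 peaks per Mb without pericentromeric ends to 59.9 with all peaks, where more peaks are counted. With 2 libraries the smallest p is 0.5. No paired analysis was possible because no second group of samples shares the replicate numbers, while X and autosomes were paired within each library in every test. Limits are the unknown depth, the shared control, 3 libraries, and peaks that are not independent.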

Other observations

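Below the rank of the thresholded list, the libraries differed in how many of their weak peaks lay on X. Among peaks ranked 15001 to 30000, X held 18.9% in replicate 1, 23.7% in replicate 2, 23.5% in replicate 3 and 23.96% in the pooled list. Among peaks ranked 1 to 500, X held 19.0%, 19.4% and 20.6% in replicates 1, 2 and 3 and 20.8% in the pooled list, so the libraries were closer together at the top.

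The lack of intergenic peaks on X held along the whole ranking. In the pooled list, intergenic summits made up 6.73% of X peaks ranked 1 to 500, against 12.1% of the autosomal peaks. The shares were 12.6% on X and 21.5% on the autosomes for ranks 2001 to 6578, and 22.7% on X and 31.7% on the autosomes for ranks 15001 to 30000.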
